A study of Saccharomyces cerevisiae with 24 samples.

Results

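The genes of triacylglycerol storage and of the phosphatidate branch point were followed in budding yeast. These were 10 of the 6576 systematic names on the array, from a list of gene names made with earlier results of these data known. They are DGA1 (YOR245C), LRO1 (YNR008W), PAH1 (YMR165C), NEM1 (YHR004C), SPO7 (YAL009W), DGK1 (YOR311C), TGL3 (YMR313C), TGL4 (YKR089C), TGL5 (YOR081C) and SCS3 (YGL126W). Each had 1 probe with 9 or 10 spots, was above background on all 24 arrays, and was among the 6209 genes kept by a filter on dim probes. The series asks how the stress sensor Ire1 responds to protein stress and to lipid stress. It holds 24 one-colour Agilent arrays, 3 for each of 8 groups, all of strain W303 and mating type a. In every group the chromosomal IRE1 gene was deleted (Δire1) and the cells expressed either ire1ΔLD, a form named for the loss of its lumenal domain (ΔLD cells), or Ire1 (IRE1 cells).

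The groups were ΔLD and IRE1 cells with DTT (2 mM, 1 h), ΔLD and IRE1 cells deleted also for OPI3 and grown overnight with 1 mM choline, ΔLD and IRE1 cells labelled Δire1Δopi3 without choline, and ΔLD and IRE1 cells with neither treatment nor the OPI3 deletion (untreated). DTT breaks disulfide bonds, which hampers folding of proteins in the endoplasmic reticulum (ER). Opi3 is a methyltransferase of phosphatidylcholine synthesis, and choline feeds another route to that lipid. The labels do not state which promoter drove the Ire1 forms, how many clones were used or whether replicates were separate cultures, so p-values measure only the spread between these samples. The IRE1 probe read −0.09 ± 0.16 in untreated ΔLD cells and −2.19 ± 0.44 in untreated IRE1 cells (SD, n = 3 each), so the form of Ire1 and the level of its transcript cannot be told apart in any comparison of ΔLD with IRE1 cells.

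Phosphatidate is the precursor of both membrane phospholipids and storage fat. Pah1 removes its phosphate to give diacylglycerol and is switched on by the Nem1-Spo7 phosphatase, Dgk1 runs the reaction backwards, and Dga1 and Lro1 acylate diacylglycerol to triacylglycerol, which the lipases Tgl3, Tgl4 and Tgl5 break down again. Phosphatidate in the ER membrane also holds the repressor Opi1 there, away from the Ino2-Ino4 activator of phospholipid genes. Scs3 belongs to the FIT family of ER membrane proteins, which act in lipid droplet formation.

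Levels are log2 signals relative to the 75th percentile of the same array. That percentile lay between 6951 and 15890 intensity units, and each array had 90.6% to 95.8% of its spots well above background. The arrays came from 3 slides, each with all 8 groups, and replicate numbers were slide numbers. Each group sat at the same slide position on all 3, so slide position and group cannot be told apart. The 5 markers of mating type a were above background on every array. Of the markers of mating type α, STE3 was also above background on every array, MF(ALPHA)1 only on some, and MF(ALPHA)2 was removed by the filter. Of the 12 arrays labelled Δopi3, 5 had OPI3 signal above background: at 1.53% and 23.3% of its untreated mean in replicates 2 and 3 of ΔLD cells, at 0.752% and 31.0% in replicates 2 and 3 of IRE1 cells, and at 11.4% in replicate 3 of choline-treated IRE1 cells. On the other 7 it was not well above background, at most 0.0227% to 0.0468% depending on the array. Δopi3 and choline changes are therefore also given without the 3 arrays on which OPI3 exceeded 10% of its untreated mean, which leaves 2 arrays in each group they came from. Without all 5, replicate 1 is the only array of Δopi3 ΔLD and of Δopi3 IRE1 cells, so those changes are given as sizes with no call. A level is a share of the RNA of a whole culture, so fewer cells with a transcript and less transcript per cell cannot be told apart.

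SCS3 varied far more than the other 9 genes: its 8 group means spanned 2.64 log2 units, and those of the others spanned 0.29 (PAH1) to 1.01 (DGA1). In DTT-treated ΔLD cells SCS3 read 0.37, 0.55 and 0.53, and in DTT-treated IRE1 cells 1.85, 2.07 and 1.94. In choline-treated Δopi3 cells it read −0.78, −0.61 and −0.62 with ΔLD, and −0.25, −0.54 and −0.59 with IRE1. In Δopi3 cells without choline it read 0.62, 0.63 and 0.29 with ΔLD, and 1.33, 1.45 and 0.84 with IRE1. Every DTT and every Δopi3 array lay above every untreated and every choline-treated array. Untreated ΔLD cells read −0.63, −0.67 and −0.77, and untreated IRE1 cells −0.74, −0.55 and −0.51. Ordered by their means, DTT-treated IRE1 cells (1.95 ± 0.11) stood highest, then Δopi3 IRE1 cells (1.21 ± 0.32), Δopi3 ΔLD cells (0.51 ± 0.19) and DTT-treated ΔLD cells (0.48 ± 0.09), all SD with n = 3. Of these neighbours only Δopi3 ΔLD and DTT-treated ΔLD cells overlapped. The lower 4 groups, choline-treated Δopi3 IRE1 (−0.46 ± 0.19), untreated IRE1 (−0.60 ± 0.12), choline-treated Δopi3 ΔLD (−0.67 ± 0.09) and untreated ΔLD cells (−0.69 ± 0.07), each overlapped the next in the order. PAH1 was the other gene whose DTT and Δopi3 arrays (0.00 to 0.19) all lay above its untreated and choline-treated arrays (−0.22 to −0.02), within a far smaller range. How many of all genes separate in this way was not counted. Of all genes kept, 7.18% had a smaller spread of group means than PAH1, and 97.2% a smaller one than SCS3.

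**Figure D1:**
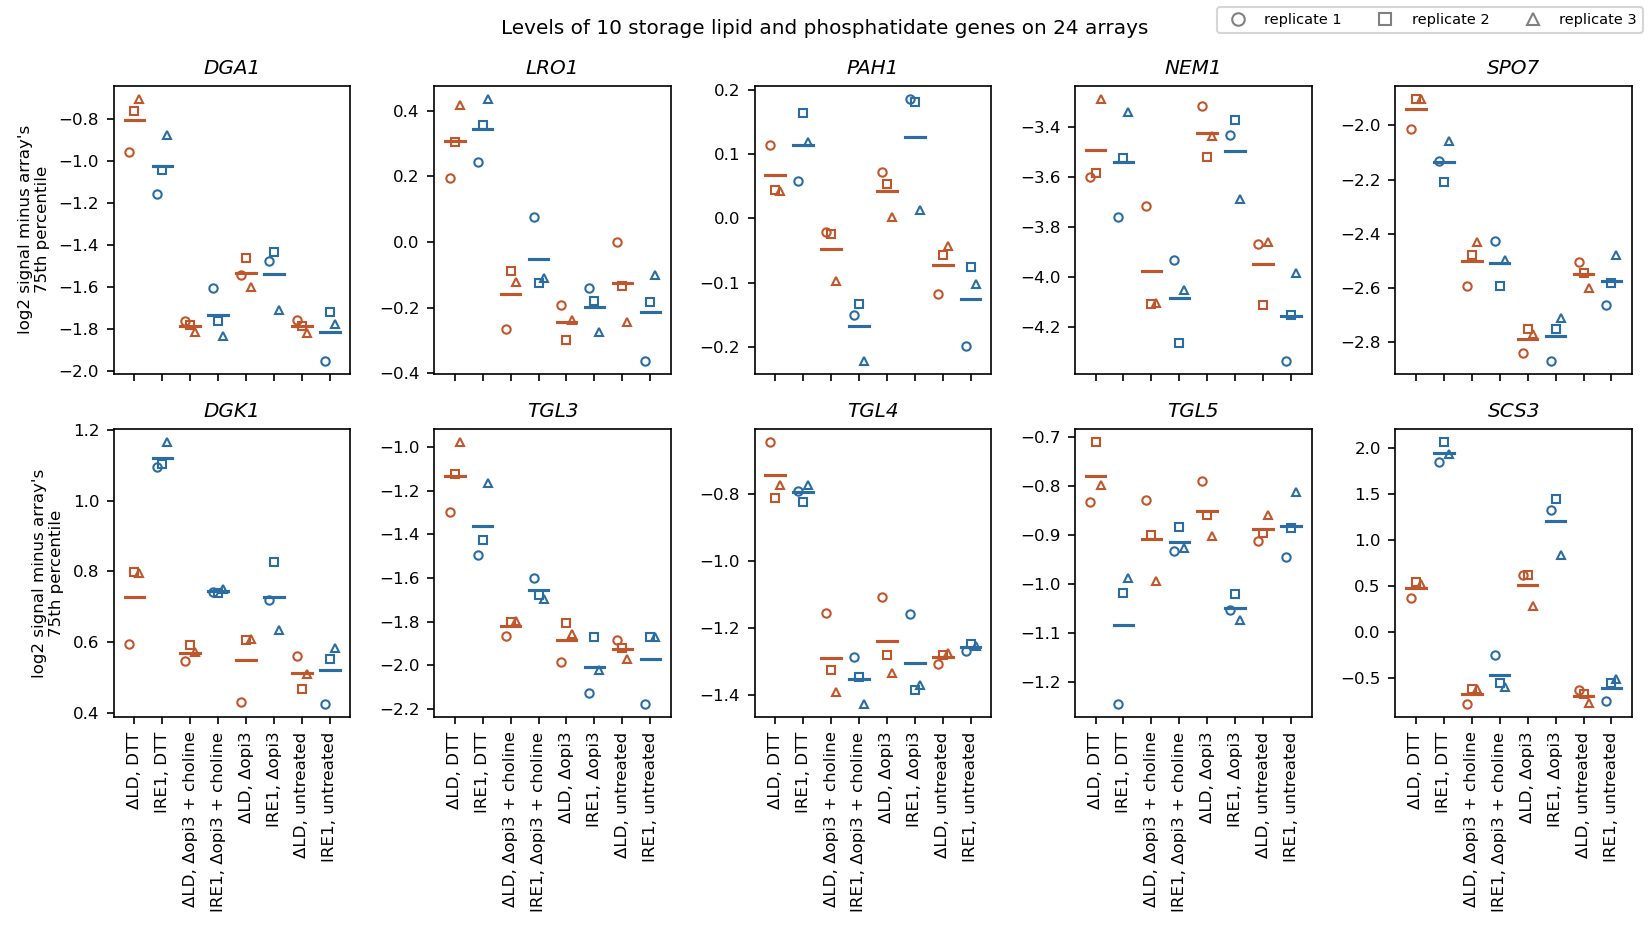
Level of each of the 10 genes on each of the 24 arrays, as log2 signal minus the array's 75th percentile, with the 8 groups along the horizontal axis, ΔLD cells in orange and IRE1 cells in blue, 1 symbol per replicate and a bar for the group mean. In the SCS3 and PAH1 panels all DTT and Δopi3 points lie above all untreated and choline-treated points, and the orange bars of SCS3 are below the blue in the DTT and Δopi3 groups. How many of all genes have such a separation of points was not counted.

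With DTT, 9 of the 10 genes rose in ΔLD cells and 9 rose in IRE1 cells, where 1 more, TGL5, fell. Over all 6209 genes 66.4% were called in ΔLD cells (38.1% higher, 28.3% lower) and 69.5% in IRE1 cells (39.4% higher, 30.1% lower), called meaning a limma adjusted p under 0.05. A call is thus common in these data. The median change of the 10 genes was 0.50 in ΔLD cells and 0.58 in IRE1 cells, and that of all genes was 0.08 and 0.07. All 10 genes had DTT and untreated arrays that did not overlap, in either cell type, as had 71.8% of all genes in ΔLD cells and 74.3% in IRE1 cells. Of the 5 mating type a markers 4 were called lower with DTT in either cell type (with the E1A scaling 3 lower and 1 higher in ΔLD cells, 1 of each in IRE1 cells). The α markers split: STE3 rose by 1.12 and 1.47, and MF(ALPHA)1, above background on only some arrays, was called lower (−0.92 and −1.10). Their part in the changes of the 10 genes was not tested. SCS3 alone passed 2-fold, as did 11.5% of all genes in ΔLD cells and 13.7% in IRE1 cells. Scaling the arrays to the spiked E1A control probes instead moved the median gene to 0.42 in ΔLD cells and 0.86 in IRE1 cells, so all DTT changes here are relative to the bulk of the transcripts; on that scale TGL5 changed by 0.59 in IRE1 cells, and the called DTT changes of the other 9 genes kept their direction.

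Both acyltransferases of triacylglycerol synthesis rose with DTT. DGA1, whose product uses acyl-CoA, read −0.96, −0.76 and −0.71 in DTT-treated ΔLD cells, against −1.76, −1.78 and −1.82 in untreated ΔLD cells. In IRE1 cells it read −1.16, −1.04 and −0.88 with DTT, against −1.95, −1.72 and −1.78 untreated. These are log2 changes of 0.98 (SE 0.09, adjusted p 2.89e-08), or 1.97-fold, in ΔLD cells and 0.79 (SE 0.09, adjusted p 2.74e-07), or 1.73-fold, in IRE1 cells. The 2 changes were not called different (0.19, 95% interval −0.07 to 0.45, adjusted p 0.491). LRO1, whose product takes the acyl chain from a phospholipid, changed by 0.43 (adjusted p 0.000177) in ΔLD cells and 0.56 (adjusted p 1.03e-05) in IRE1 cells.

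The phosphatidate phosphatase and its activators rose less evenly. PAH1 had the smallest rises, 0.14 (adjusted p 0.0333) in ΔLD cells and 0.24 (adjusted p 0.000841) in IRE1 cells, or 1.10-fold and 1.18-fold, and its call in ΔLD cells was lost in 9 of 15 alternatives. NEM1, the catalytic subunit of the activating phosphatase, changed by 0.45 (adjusted p 0.00626) and 0.61 (adjusted p 0.000526) in the same order of cells. SPO7, its regulatory subunit, changed by 0.61 (adjusted p 2.69e-07) and 0.44 (adjusted p 9.08e-06). With quantile normalization the NEM1 rise in ΔLD cells was 0.19 and lost its call (adjusted p 0.0933), as it did without replicate 2 (0.42, adjusted p 0.0770).

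DGK1, the diacylglycerol kinase that makes phosphatidate again, read 0.59, 0.80 and 0.79 in DTT-treated ΔLD cells, against 0.56, 0.47 and 0.51 in untreated ΔLD cells. In IRE1 cells it read 1.10, 1.10 and 1.17 with DTT, against 0.42, 0.55 and 0.58 untreated. The rise was 0.22 (SE 0.07, adjusted p 0.00761) in ΔLD cells and 0.60 (SE 0.07, adjusted p 2.31e-07) in IRE1 cells. In ΔLD cells replicate 1 showed a DTT difference of 0.03, and the call was lost without replicate 2 and without replicate 3. The DTT effect differed between the cell types by −0.39 (ΔLD minus IRE1, SE 0.09, adjusted p 0.0116), below 0 on all 3 slides at −0.64, −0.22 and −0.30. That call was lost when any 1 replicate number was left out of all groups, and with the E1A scaling, where the difference was −0.84 (SE 0.32, adjusted p 0.134). With that scaling the median gene stood at −0.41 for this difference, against 0.04 with the 75th percentile.

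Of the lipases, TGL3, the main triacylglycerol lipase, and TGL4 rose in both cell types and TGL5 did not. TGL3 read −1.30, −1.12 and −0.98 in DTT-treated ΔLD cells, against −1.88, −1.92 and −1.97 in untreated ΔLD cells, a change of 0.79 (adjusted p 1.21e-06). In IRE1 cells its change was 0.61 (adjusted p 1.93e-05). TGL4 changed by 0.54 (adjusted p 3.47e-06) in ΔLD cells and 0.46 (adjusted p 1.85e-05) in IRE1 cells. TGL5 read −0.83, −0.71 and −0.80 with DTT in ΔLD cells, against −0.91, −0.90 and −0.86 untreated, a change of 0.11 that was not called (adjusted p 0.144). In IRE1 cells it fell to −1.24, −1.02 and −0.99 with DTT, against −0.94, −0.89 and −0.81 untreated, a change of −0.20 (SE 0.06, adjusted p 0.00881). That call was lost in 3 of 15 alternatives, among them without replicate 2 (adjusted p 0.0619). In 1 more, the E1A scaling, the direction reversed and TGL5 was called higher (0.59). Its DTT effect differed between cell types by 0.31 (ΔLD minus IRE1, SE 0.09, adjusted p 0.0374), a call that 13 of its 21 alternatives did not keep.

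SCS3 rose most with DTT, by 1.17 (SE 0.13, adjusted p 4.00e-07), or 2.25-fold, in ΔLD cells and by 2.55 (SE 0.13, adjusted p 1.25e-11), or 5.87-fold, in IRE1 cells. A larger change in either direction was found for 7.28% of all genes in ΔLD cells and for 0.515% in IRE1 cells. The rise was 1.38 log2 units smaller in ΔLD cells (difference −1.38, SE 0.19, adjusted p 3.98e-05). On the 3 slides this difference was −1.59, −1.41 and −1.15, and it kept its direction and its call in all 21 alternatives run.

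**Figure D2:**
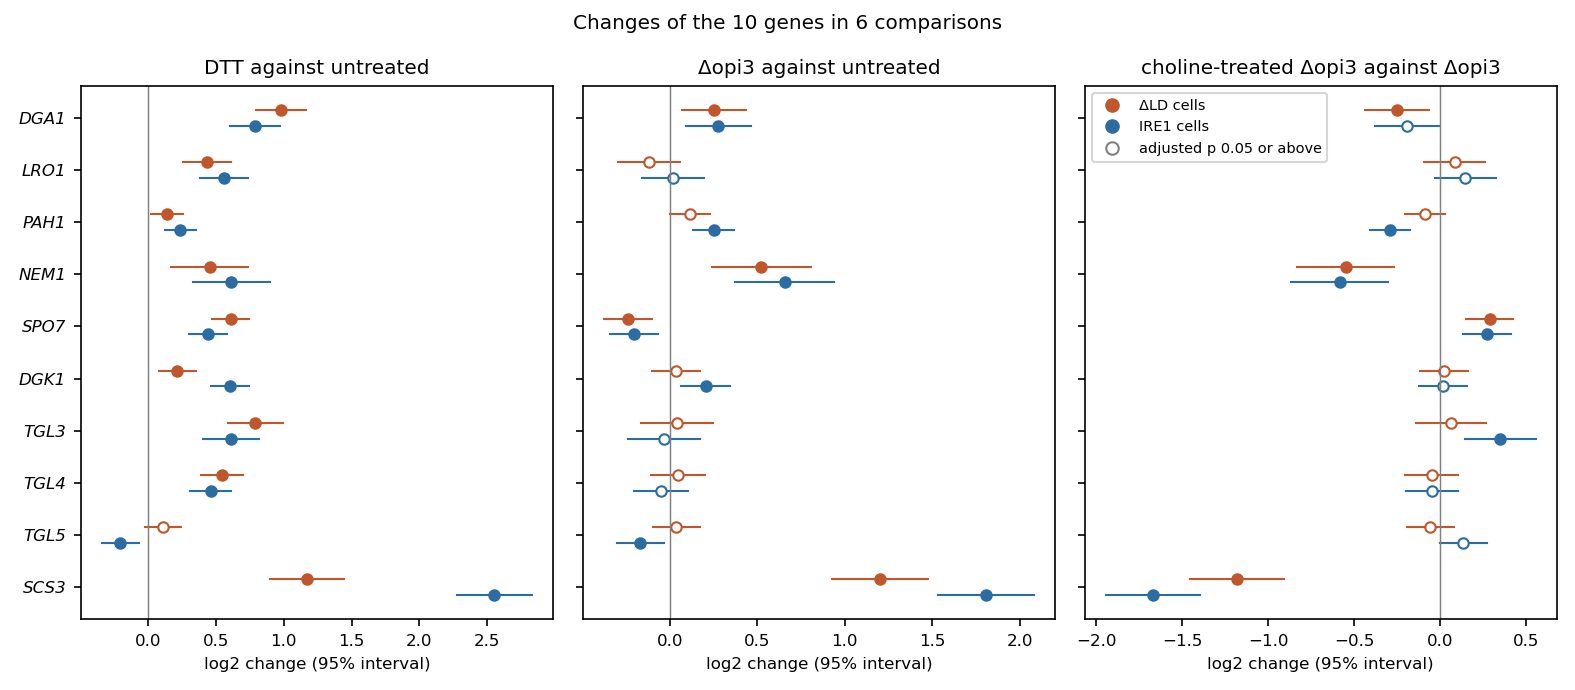
Log2 change of each gene (horizontal axis, with 95% interval) for DTT against untreated, Δopi3 against untreated and choline-treated Δopi3 against Δopi3, in ΔLD cells (orange, above) and IRE1 cells (blue, below), with open circles for an adjusted p of 0.05 or above. SCS3 lies at 1.17 and 2.55 with DTT, 1.20 and 1.81 in Δopi3 cells and −1.18 and −1.67 with choline, while the other genes stay between −0.58 and 0.98.

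In Δopi3 cells SCS3, NEM1 and DGA1 were called higher in both cell types, and SPO7 was called lower in both. In all, 4 of the 10 genes were called in ΔLD cells (3 higher, 1 lower) and 7 in IRE1 cells (5 higher, 2 lower), where 56.5% (29.2% higher, 27.3% lower) and 67.3% (32.2% higher, 35.1% lower) of all genes were called. The arrays of the 2 groups did not overlap for 5 genes in ΔLD cells and 7 in IRE1 cells, against 66.4% and 64.3% of all genes. These shares are close to or below those of all genes. The untreated arrays here are the same as in the DTT comparisons. With the 3 arrays with most OPI3 signal left out, 5 genes were called in ΔLD cells and 6 in IRE1 cells. The shares of all genes called were not computed without these arrays, here or below.

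Mating type markers moved with the Δopi3 label. All 5 markers of type a were called lower, with a median change of −0.92 in ΔLD cells and −1.16 in IRE1 cells, and of −1.12 and −1.46 without the 3 arrays. The summed level of the 5, in multiples of the array's 75th percentile, was 4.28 to 6.08 in Δopi3 ΔLD cells, against 9.09 to 10.2 in untreated ΔLD cells, and 3.42 to 5.92 in Δopi3 IRE1 cells, against 8.93 to 9.67 in untreated IRE1 cells. The summed level of the 3 markers of type α was far lower, at 0.0684 to 0.0873 in Δopi3 ΔLD cells, against 0.0306 to 0.0397 in untreated ΔLD cells, and 0.0684 to 0.0871 in Δopi3 IRE1 cells, against 0.0299 to 0.0350 in untreated IRE1 cells. STE3, the receptor gene of type α, rose by 1.06 (adjusted p 3.55e-06) and 1.48 (adjusted p 2.77e-08), and MF(ALPHA)2 was above background on no Δopi3 array. The part of these markers in the changes of the 10 genes was not tested.

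SCS3 rose by 1.20 (SE 0.13, adjusted p 4.70e-07), or 2.30-fold, in Δopi3 ΔLD cells and by 1.81 (SE 0.13, adjusted p 9.51e-10), or 3.50-fold, in Δopi3 IRE1 cells. The difference between the cell types was −0.60 (ΔLD minus IRE1, 95% interval −0.99 to −0.22) and was not called (adjusted p 0.0753). It was called with replicate number, and so slide, as a block (adjusted p 0.0447) and without the 3 arrays (−0.68, adjusted p 0.00594). SCS3 itself changed by 1.31 (adjusted p 1.81e-08) and 1.99 (adjusted p 6.43e-11) without the 3 arrays. On replicate 1 alone, without all 5 arrays, its changes were 1.31 and 1.93 and the difference between them −0.62.

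NEM1 read −3.32, −3.52 and −3.44 in Δopi3 ΔLD cells, against −3.87, −4.11 and −3.86 in untreated ΔLD cells. In Δopi3 IRE1 cells it read −3.43, −3.37 and −3.69, against −4.33, −4.15 and −3.98 in untreated IRE1 cells. The changes were 0.52 (SE 0.14, adjusted p 0.00313) and 0.66 (SE 0.14, adjusted p 0.000307). SPO7, the partner of Nem1, moved the other way: it read −2.84, −2.75 and −2.77 in Δopi3 ΔLD cells, against −2.50, −2.55 and −2.60 in untreated ΔLD cells, a change of −0.24 (SE 0.07, adjusted p 0.00524). In IRE1 cells its change was −0.20 (SE 0.07, adjusted p 0.0110). The SPO7 call was lost in 2 of 17 alternatives in ΔLD cells and in 7 of 17 in IRE1 cells, with the E1A scaling in both. Without the 3 arrays NEM1 changed by 0.53 (adjusted p 0.00785) and 0.75 (adjusted p 0.000381), and SPO7 by −0.25 (adjusted p 0.0111) and −0.24 (adjusted p 0.0115). With replicate 1 as the only Δopi3 array the sizes were 0.63 and 0.72 for NEM1 and −0.29 in either cell type for SPO7.

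DGA1 changed by 0.25 (adjusted p 0.0206) in Δopi3 ΔLD cells and 0.28 (adjusted p 0.00967) in Δopi3 IRE1 cells, and by 0.29 (adjusted p 0.0116) and 0.36 (adjusted p 0.00181) without the 3 arrays. Its call was lost in 6 of 17 alternatives in each cell type. PAH1 changed by 0.11 (adjusted p 0.0847, not called) and 0.25 (adjusted p 0.000574), and without the 3 arrays by 0.13 (adjusted p 0.0424, called) and 0.31 (adjusted p 9.16e-05). DGK1 changed by 0.04 (adjusted p 0.662, not called) and 0.21 (adjusted p 0.0104), and TGL5 by 0.04 (adjusted p 0.633, not called) and −0.17 (adjusted p 0.0271). Of DGA1, PAH1, DGK1 and TGL5 none had a difference between the cell types that was called. In IRE1 cells without the 3 arrays the DGK1 change was 0.25 (adjusted p 0.00556), and that of TGL5 was −0.16 and lost its call (adjusted p 0.0745). With replicate 1 as the only Δopi3 array the sizes in ΔLD and IRE1 cells were 0.25 and 0.34 for DGA1, 0.14 and 0.31 for PAH1, −0.08 and 0.20 for DGK1 and 0.10 and −0.17 for TGL5. LRO1, TGL3 and TGL4 were called in neither cell type, with changes between −0.12 and 0.05. With the E1A scaling only SCS3 was called in Δopi3 ΔLD cells and only SCS3 and NEM1 in Δopi3 IRE1 cells, and without replicate 2 the counts of called genes were 1 and 3. Calls over all 6209 genes fell too, from 3507 in ΔLD and 4177 in IRE1 cells. They were 1146 and 1909 with the E1A scaling, and 1855 and 3011 without replicate 2.

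The third slide gave the smallest Δopi3 difference in IRE1 cells for the 5 genes called higher there, and it is the slide on which OPI3 read 31.0% of its untreated mean in that group. On slides 1, 2 and 3 the difference was 2.08, 2.00 and 1.34 for SCS3. For NEM1 it was 0.90, 0.78 and 0.30, and for DGA1 0.47, 0.29 and 0.07. For PAH1 it was 0.38, 0.26 and 0.12, and for DGK1 0.29, 0.28 and 0.05. In ΔLD cells, where OPI3 read 23.3% on the third slide, that slide gave the smallest difference for SCS3 (1.25, 1.29 and 1.06), NEM1 (0.55, 0.59 and 0.42) and PAH1 (0.19, 0.11 and 0.04), but not for DGA1 (0.22, 0.32 and 0.22, the first slide being lowest by less than 0.01) or DGK1 (−0.13, 0.14 and 0.10). The genes called lower did not follow 1 pattern. In IRE1 cells SPO7 and TGL5 fell most on the third slide, and in ΔLD cells SPO7 fell least there. LRO1 and TGL3, not called, also had their lowest difference in IRE1 cells on the third slide. The part of the OPI3 signal in all these differences was not tested.

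**Figure D3:**
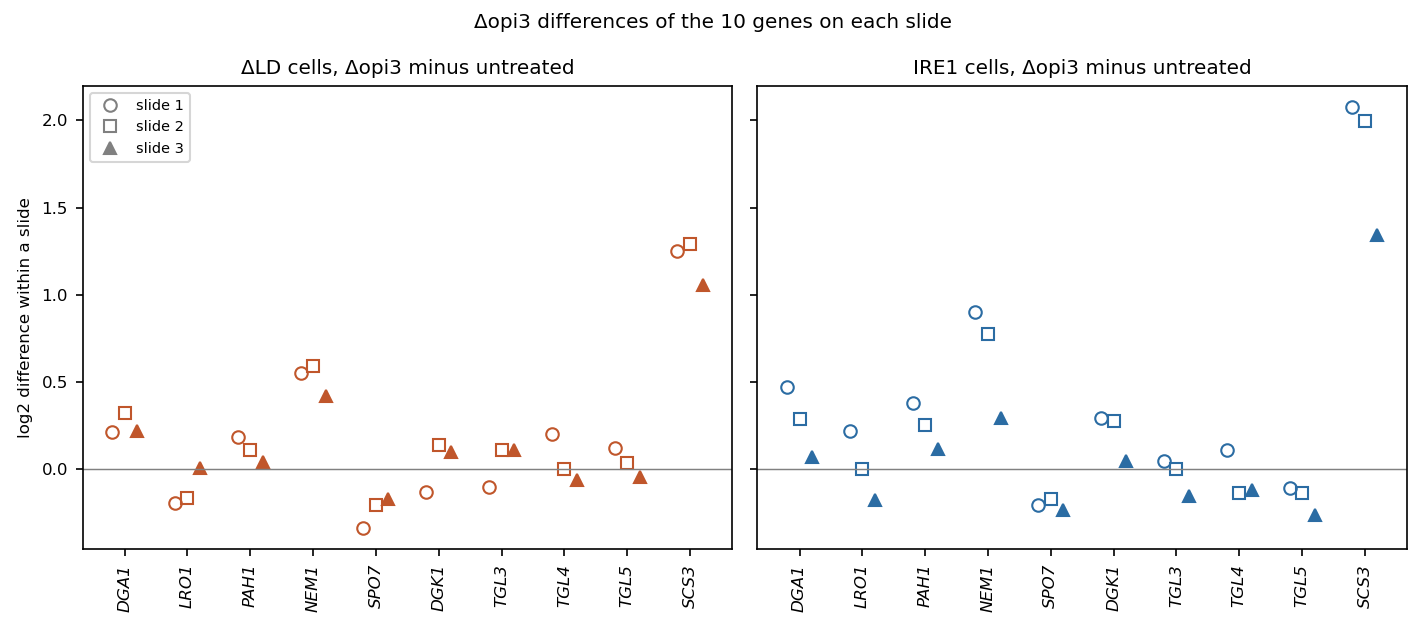
Log2 difference between the Δopi3 and untreated arrays of the same slide for each of the 10 genes, with ΔLD cells in the left panel, IRE1 cells in the right panel and filled triangles for slide 3. In IRE1 cells slide 3 gives the lowest value for every gene except TGL4, and SCS3 is still at 1.34 there. In ΔLD cells slide 3 is lowest for SCS3, NEM1, PAH1, TGL4 and TGL5.

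With choline SCS3 and NEM1 fell and SPO7 rose in both cell types. Choline-treated Δopi3 cells are compared here with the same Δopi3 arrays as above, so both sets of changes share those arrays and are given side by side only. In all, 4 genes were called in ΔLD cells (1 higher, 3 lower) and 5 in IRE1 cells (2 higher, 3 lower), with 60.0% (27.8% higher, 32.1% lower) and 70.3% (34.0% higher, 36.3% lower) of all genes called. SCS3 fell by 1.18 (SE 0.13, adjusted p 5.52e-07) in ΔLD cells and by 1.67 (SE 0.13, adjusted p 2.28e-09) in IRE1 cells. NEM1 read −3.72, −4.11 and −4.10 in choline-treated Δopi3 ΔLD cells, against −3.32, −3.52 and −3.44 without choline, and its changes were −0.55 (adjusted p 0.00197) in ΔLD cells and −0.58 (adjusted p 0.000816) in IRE1 cells. SPO7 rose by 0.29 (adjusted p 0.00117) and 0.27 (adjusted p 0.00125). With quantile normalization the NEM1 changes were −0.23 and −0.17 and neither was called (adjusted p 0.0531 and 0.133), and with the E1A scaling SCS3 was the only one of the 10 called for choline in either cell type. Over all genes the E1A scaling gave 1375 calls in ΔLD and 2471 in IRE1 cells, against 3723 and 4368 with the 75th percentile. Without the 3 arrays the changes were −1.29 (adjusted p 2.18e-08) and −1.79 (adjusted p 7.24e-10) for SCS3, −0.56 (adjusted p 0.0053) and −0.69 (adjusted p 0.00169) for NEM1, and 0.30 in either cell type (adjusted p 0.00315 and 0.00451) for SPO7. With replicate 1 as the only Δopi3 array without choline they were −1.29 and −1.73 for SCS3, −0.66 and −0.67 for NEM1, and 0.34 and 0.36 for SPO7. All 5 markers of mating type a were called higher with choline (medians 0.99 in ΔLD cells and 1.41 in IRE1 cells), and STE3 changed by −1.12 and −2.07. Their part in the choline changes was not tested.

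The other choline changes that were called were so in a single cell type. DGA1 changed by −0.25 (adjusted p 0.0198) in ΔLD cells and −0.19 (adjusted p 0.0574, not called) in IRE1 cells. PAH1 changed by −0.09 (adjusted p 0.171, not called) and −0.29 (adjusted p 0.000120). TGL3 changed by 0.06 (adjusted p 0.610, not called) and 0.35 (adjusted p 0.00370). Without the 3 arrays these calls held, and DGA1 was called in IRE1 cells too: DGA1 changed by −0.28 (adjusted p 0.0112) and −0.23 (adjusted p 0.0473), PAH1 by −0.11 (adjusted p 0.0905) and −0.32 (adjusted p 0.000145), and TGL3 by 0.07 (adjusted p 0.602) and 0.36 (adjusted p 0.0195). With replicate 1 as the only Δopi3 array without choline the sizes were −0.24 and −0.21 for DGA1, −0.12 and −0.33 for PAH1, and 0.16 and 0.49 for TGL3. None of the 10 genes had a choline effect called different between the cell types, where 6.99% of all genes did and 3 of the 10 had an unadjusted limma p under 0.05. The largest of these differences was that of SCS3, at 0.49 (ΔLD minus IRE1, 95% interval 0.10 to 0.87, adjusted p 0.128), and without the 3 arrays it was called (0.49, adjusted p 0.0439).

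Set against untreated cells directly, choline-treated Δopi3 cells had none of the 10 genes called by limma in either cell type, where 0.515% of all genes were called with ΔLD and 2.22% with IRE1. None of the 10 had an unadjusted p under 0.05 with ΔLD and 2 had one with IRE1. The groups did not overlap for 1 gene with ΔLD and 3 with IRE1, against 15.2% and 24.3% of all genes. For SCS3 the difference was 0.02 (95% interval −0.26 to 0.29) with ΔLD and 0.14 (−0.14 to 0.41) with IRE1. The 2 genes with the lowest p in IRE1 cells were DGK1, which read 0.74, 0.74 and 0.75 with choline, against 0.42, 0.55 and 0.58 untreated (0.22, adjusted p 0.0821), and TGL3, which read −1.60, −1.68 and −1.70, against −2.18, −1.87 and −1.87 (0.32, adjusted p 0.0932). Both were called with replicate number as a block (adjusted p 0.0347 and 0.0331).

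Between ΔLD and IRE1 cells the 10 genes were compared within each condition. Under DTT 4 genes were called, 2 higher and 2 lower in ΔLD cells, with 20.7% of all genes called (7.47% higher, 13.2% lower). SCS3 was lower by 1.47 log2 units in ΔLD cells (−1.47, SE 0.13, adjusted p 7.43e-08), a 2.77-fold difference that held in all 15 alternatives. DGK1 was lower by 0.39 (−0.39, SE 0.07, adjusted p 0.000193), and lost its call with the E1A scaling (−0.51, adjusted p 0.249). TGL5 was higher by 0.30 (SE 0.06, adjusted p 0.00168), a call lost with the E1A scaling (0.19, adjusted p 0.983) and without replicate 2 (adjusted p 0.110). SPO7 was higher by 0.19 (SE 0.07, adjusted p 0.0436), a call lost in 10 of 15 alternatives. The arrays of the 2 cell types did not overlap for 4 of the 10 genes, a share close to the 38.5% of all genes.

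In Δopi3 cells 2 genes were called, 1 higher and 1 lower, with 16.1% of all genes called (6.91% higher, 9.23% lower). SCS3 was lower in ΔLD cells (−0.69, SE 0.13, adjusted p 0.0012) and TGL5 higher (0.20, SE 0.06, adjusted p 0.0406). The SCS3 call was lost when the fit held only the 2 groups compared, without replicate 2, and with the E1A scaling, where its value was −0.55 (adjusted p 0.341). Without the 3 arrays it was −0.76 (adjusted p 0.000119), and with replicate 1 as the only array of both groups −0.71. The TGL5 call was lost in 14 of 17 alternatives, among them without the 3 arrays (0.21, adjusted p 0.0710). DGK1 was not called (−0.18, adjusted p 0.0736), but was in 3 of 17 alternatives: with replicate number as a block (adjusted p 0.0402), without replicate 3 of the Δopi3 IRE1 group (adjusted p 0.0202), and without the 3 arrays (−0.26, adjusted p 0.0290). In choline-treated Δopi3 cells limma called none of the 10, with 3.14% of all genes called and 2 of the 10 at an unadjusted p under 0.05. In untreated cells it again called none, with 0.789% of all genes called and none of the 10 at an unadjusted p under 0.05. There SCS3 differed by −0.09 (95% interval −0.36 to 0.19).

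Of the tests of the effects themselves, 3 of the 10 genes had a DTT effect that differed between ΔLD and IRE1 cells (SCS3 and DGK1 lower, TGL5 higher), with 8.31% of all genes called (1.72% higher, 6.59% lower). No Δopi3 effect was called different by limma among the 10, with 4.11% of all genes called and 2 of the 10 at an unadjusted p under 0.05.

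Other genes of phosphatidate supply and use were followed through a list of 10: SCT1, GPT2, SLC1, ALE1, LOA1, AYR1, CDS1, DPP1, LPP1 and APP1. With DTT 7 rose and 1 fell in ΔLD cells, and 8 rose and 1 fell in IRE1 cells. Of all genes 38.1% rose and 28.3% fell in ΔLD cells, and 39.4% rose and 30.1% fell in IRE1 cells. LPP1, a lipid phosphatase that can also act on phosphatidate, rose by 1.25 in ΔLD cells (adjusted p 2.72e-07) and by 2.33 in IRE1 cells (adjusted p 6.31e-11). Its DTT effect was 1.07 log2 units smaller in ΔLD cells (−1.07, SE 0.19, adjusted p 0.000896). The glycerol-3-phosphate acyltransferase gene GPT2 rose by 1.08 and 0.90 (adjusted p 1.72e-05 and 0.000107). CDS1, which turns phosphatidate into CDP-diacylglycerol for phospholipid synthesis, fell by 0.84 and 0.88 (adjusted p 2.38e-05 and 1.25e-05), calls lost with the E1A scaling (−0.50 and −0.09). In Δopi3 cells 2 rose and 2 fell with ΔLD, and 6 rose and 1 fell with IRE1. Of all genes 29.2% rose and 27.3% fell with ΔLD, and 32.2% rose and 35.1% fell with IRE1. The list's share called was thus below that of all genes with ΔLD and close to it with IRE1. Without the 3 arrays 3 of the list rose and 1 fell with ΔLD, and 7 rose and 1 fell with IRE1. LPP1 again changed most there, by 0.77 (adjusted p 0.000109) and 1.37 (adjusted p 7.21e-08), or 0.83 and 1.56 without the 3 arrays, and the 2 values were not called different (adjusted p 0.0946).

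Of 10 genes of steryl esters and lipid droplets (ARE1, ARE2, TGL1, YEH1, YEH2, SEI1, LDB16, PET10, YFT2 and LDH1), 8 rose with DTT in ΔLD cells, and 6 rose and 1 fell in IRE1 cells. The shares of all genes that rose were 38.1% and 39.4%. ARE2, a sterol acyltransferase gene, rose by 1.18 and 0.96 (adjusted p 3.34e-09 and 2.77e-08). YFT2 encodes the other FIT family protein of yeast. It rose with DTT by 1.14 in ΔLD cells (adjusted p 2.03e-09) and by 0.81 in IRE1 cells (adjusted p 9.52e-08). In Δopi3 cells its changes were 0.13 and 0.10 and were not called (adjusted p 0.187 and 0.274). Under DTT YFT2 was higher in ΔLD than in IRE1 cells (0.38, adjusted p 0.00233), and SCS3 was lower there. With the E1A scaling the YFT2 value was 0.26 (adjusted p 0.865). No gene of this list, YFT2 included, had a DTT effect called different between the cell types, whereas SCS3 and 8.31% of all genes had. Of the list, 5 of 10 had an unadjusted limma p under 0.05 for this difference, as had 1126 of all 6209 genes. The list's median difference was 0.21 (ΔLD minus IRE1), and that of all genes was 0.04. In Δopi3 cells 4 of this list rose with ΔLD and 5 with IRE1, and none fell. Of all genes 29.2% and 32.2% rose, and 56.5% and 67.3% were called in either direction. Among the list's genes that rose were the droplet protein gene PET10 (0.83 and 0.84, adjusted p 1.70e-05 and 9.16e-06) and ARE1, the other sterol acyltransferase gene (0.48 and 0.85, adjusted p 3.11e-05 and 1.44e-08). Leaving out the 3 arrays, 4 of the list rose with ΔLD, and 5 rose and 1 fell with IRE1, with changes of 0.88 and 0.96 for PET10 and of 0.54 and 0.90 for ARE1.

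Most regulators and targets of the Opi1, Ino2 and Ino4 circuit fell with DTT relative to the bulk of the transcripts. Of 14 genes (INO2, INO4, OPI1, SCS2, CHO1, INO1, ITR1, CHO2, CKI1, HNM1, CPT1, EKI1, PSD1 and EPT1), 11 fell and none rose with DTT in ΔLD cells, and 10 fell and 2 rose in IRE1 cells. Of all genes 28.3% fell and 38.1% rose in ΔLD cells, and 30.1% fell and 39.4% rose in IRE1 cells. With the E1A scaling 6 of the 14 fell and none rose in ΔLD cells, and 1 fell and 5 rose in IRE1 cells. INO1, which encodes the enzyme that makes inositol phosphate and is the best known target of the circuit, moved in opposite directions in the 2 cell types, by −1.22 in ΔLD cells (adjusted p 0.000300) and 1.64 in IRE1 cells (adjusted p 1.25e-05), a difference of −2.85 (ΔLD minus IRE1, SE 0.36, adjusted p 1.87e-05). The inositol transporter gene ITR1 changed by −1.58 and −1.27 (adjusted p 1.11e-10 and 8.41e-10). In Δopi3 cells 3 rose and 3 fell with ΔLD, and 8 rose and 3 fell with IRE1. Of all genes 29.2% rose and 27.3% fell with ΔLD, and 32.2% rose and 35.1% fell with IRE1. The counts of the 14 genes were the same without the 3 arrays, except that 2 fell with IRE1. INO1 changed most, by 5.24 and 6.05 (adjusted p 1.38e-11 and 6.64e-13), or 5.32 and 6.08 without the 3 arrays. ITR1 changed there by 0.53 and 0.69 (adjusted p 8.26e-05 and 2.65e-06), or 0.56 and 0.71 without the 3 arrays, and INO4, a subunit of the activator, by 0.53 and 0.68 (adjusted p 2.84e-05 and 8.36e-07), or 0.55 and 0.72. With choline 10 fell and 1 rose with ΔLD, and 9 fell and 1 rose with IRE1, and INO1 changed by −6.30 and −7.16 (adjusted p 2.78e-12 and 6.01e-14). Of all genes 32.1% fell and 27.8% rose with ΔLD, and 36.3% fell and 34.0% rose with IRE1. Against untreated cells, choline-treated Δopi3 cells had 0.515% of all genes called with ΔLD and 2.22% with IRE1. In choline-treated Δopi3 cells 6 of these 14 with ΔLD and 8 with IRE1 were called lower than in untreated cells (8 and 7 without the 3 arrays), a comparison in which limma called none of the 10 storage and phosphatidate genes. Among them were CHO1, the phosphatidylserine synthase gene (−0.75 and −0.63, adjusted p 5.51e-05 and 0.000225), and INO2 (−0.56 and −0.65, adjusted p 0.00692 and 0.000962); with the E1A scaling neither was called.

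**Figure D4:**
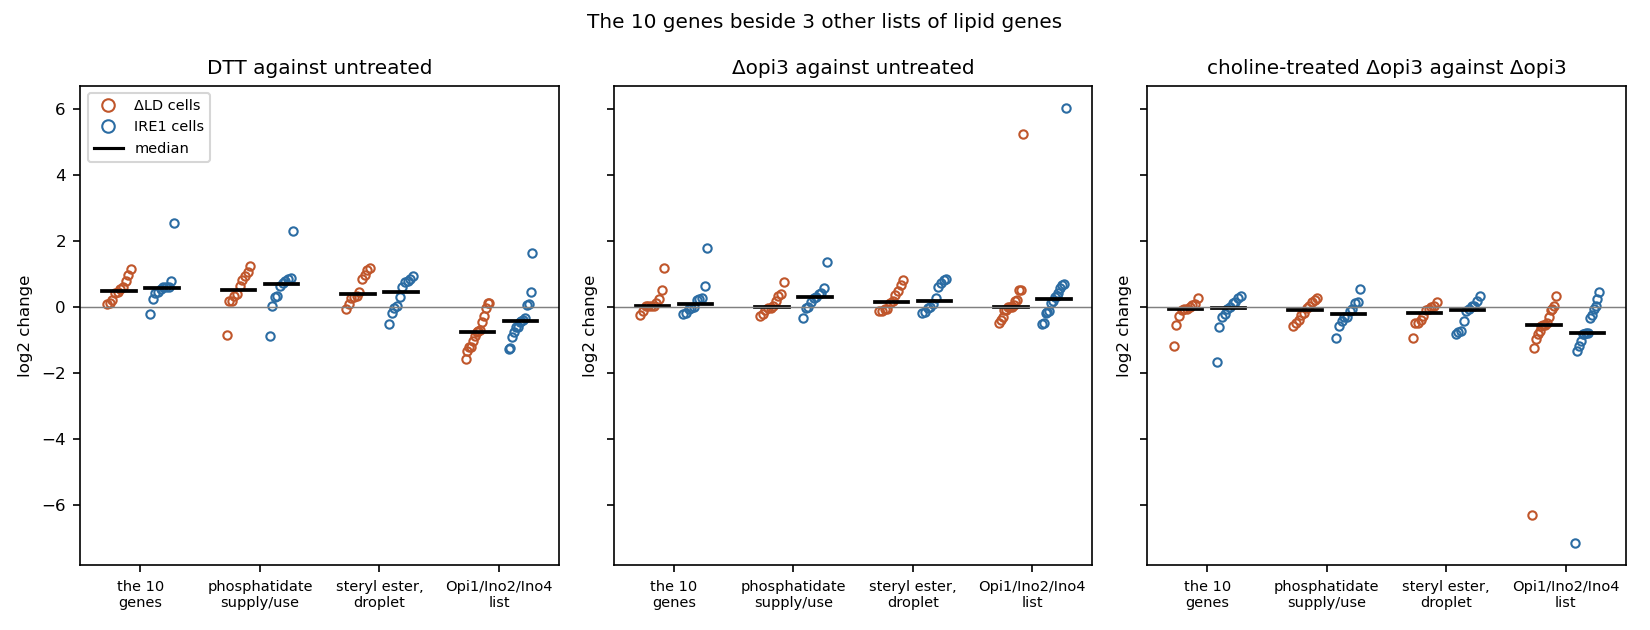
Log2 change of every gene (open circles) of the 10 storage and phosphatidate genes and of the 3 other lists of lipid genes, in the same 3 comparisons, with ΔLD cells in orange, IRE1 cells in blue and a black bar for each list's median. With DTT the medians of the 10 genes are 0.50 and 0.58 and those of the Opi1, Ino2 and Ino4 list −0.74 and −0.42, of which that in IRE1 cells is 0.37 with the E1A scaling.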

How the data were processed

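Cy3-labelled material made from total RNA was hybridised to 1-colour arrays, per the labels. The authors deposited spot intensity values from Agilent Feature Extraction 10.7.1.1, background-subtracted and detrended per the file headers. The authors' deposited table of log2 ratios (587 lines) held none of the 10 genes. Here, outlier spots were left out, the array's 75th percentile was subtracted from log2 intensity, and spots of a probe and probes of a gene were averaged. A gene was kept when, throughout at least 1 group, over 50% of its spots exceeded background. One limma 3.58.1 fit (R 4.3.3) over 24 arrays gave 15 comparisons (12 between groups, 3 between effects), with Benjamini-Hochberg adjustment over 6209 genes within each and two-sided p-values. The script was tested on simulated data.

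Members and lists were chosen with earlier results of these data known. The text names all members, IRE1, OPI3 and, in each other list, up to 4 called genes of largest change, plus YFT2 as the other FIT gene. Same-numbered arrays came from 1 slide, and 30 of 36 correlations of their deviations exceeded 0.1, including every one for the DTT, choline and ΔLD comparisons, so the numbers pair the samples there. Alternatives were quantile normalization, E1A scaling, normexp (offset 50, on median signals), no filter on dim probes, a fit of the compared groups alone, the replicate block, each replicate left out, and Δopi3 arrays with OPI3 signal left out. No matching genome or sequence table was used, so no coordinates or sequences are given.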

Additional observations from a re-analysis of the deposited data

Results flagged for a closer look

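In 3 genes the DTT effect in ΔLD cells differed from that in IRE1 cells by the interaction term of the limma fit (ΔLD minus IRE1, 3 arrays per group). For SCS3 the difference was −1.38 (SE 0.19, adjusted p 3.98e-05), and it was below 0 on all 3 slides. For DGK1 it was −0.39 (SE 0.09, adjusted p 0.0116), also below 0 on all 3 slides. For TGL5 it was 0.31 (SE 0.09, adjusted p 0.0374), above 0 on all 3 slides. The DGK1 call and the TGL5 call were lost with the E1A scaling (−0.84 and −0.14, the second with its sign turned). In 15 further runs 1 array, or 1 replicate number in all groups, was left out. SCS3 kept its call in all of them. The DGK1 call was lost in 3, each without 1 replicate number, and the TGL5 call in 11.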

How the results depend on the processing

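Of 48 called results of the 10 genes, 22 kept direction and call in every alternative and 27 in all but the E1A scaling; over 782 recalculations 660 kept both, 119 lost the call and 3 reversed, all 3 of TGL5 with the E1A scaling (DTT in IRE1 cells 0.59, Δopi3 in IRE1 cells 0.0033, difference of the DTT effect −0.14). The 6 DTT, Δopi3 and choline effects of SCS3 were among those that always held. Counts of called genes that moved by over 1.5 times were as follows. With the E1A scaling they were 1 (Δopi3, ΔLD), 2 (Δopi3, IRE1), 1 for choline in either cell type, 1 and 0 for ΔLD against IRE1 under DTT and in Δopi3 cells, and 1 for the difference of the DTT effect. Over all genes calls fell there too. They went from 3507 and 4177 to 1146 and 1909 for Δopi3, and from 3723 and 4368 to 1375 and 2471 for choline. For ΔLD against IRE1 they went from 1284 to 346 under DTT and from 1002 to 119 in Δopi3 cells. For the difference of the DTT effect they went from 516 to 275. With that scaling the median gene stood at 0.86 for DTT in IRE1 cells and at −0.41 for the difference of the DTT effect, against 0.07 and 0.04 with the 75th percentile. Quantile normalization gave 2 for choline in ΔLD cells, with 3744 of all genes called. Fitting the compared groups alone gave 2 for Δopi3 in IRE1 cells, with 3310 of all genes called. For ΔLD against IRE1 in Δopi3 cells it gave 0, with 176 of all genes called, and normexp gave 1, with 949 called. Leaving out the 5 Δopi3 arrays with OPI3 above background, which leaves 1 array in each Δopi3 group without choline and so assumes that it varies like the other groups, gave 1 there, and leaving out the 3 with OPI3 over 10% gave 1 each for the differences of the Δopi3 and choline effects. Normexp on median signals, both of these array exclusions and the alternatives for the other gene lists were chosen after seeing the data. The cause of these shifts was not tested.

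With the replicate block, 2 genes were called in choline-treated Δopi3 against untreated IRE1 cells and 1 in the difference of the Δopi3 effect (SCS3, −0.60, adjusted p 0.0447), and DGK1 was called in Δopi3 ΔLD against Δopi3 IRE1 cells (−0.18, adjusted p 0.0402). It changed no other call. In the Δopi3 and choline-treated Δopi3 comparisons with untreated cells not every pair of same-numbered arrays passed 0.1.

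With 1 or more arrays left out, the number of genes called ranged from 6 to 9 for DTT in ΔLD cells and 9 to 10 in IRE1 cells, 1 to 5 and 3 to 6 for Δopi3, 3 to 4 and 4 to 6 for choline, 2 to 6 for ΔLD against IRE1 under DTT and 0 to 2 in Δopi3 cells, 1 to 3 for the difference of the DTT effect, 0 to 1 for that of the Δopi3 effect and 0 to 2 for that of the choline effect. Leaving out replicate 2 gave the lowest counts for Δopi3 in both cell types, 1 and 3. Over all genes 1855 and 3011 were called without replicate 2. Without replicate 1 these counts were 2752 and 3525, and without replicate 3 they were 3281 and 4063. The number of arrays, 3 per group, limits the precision of every value.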

Other observations

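Across the 8 group means, the gene most like SCS3 was LCL2 (Pearson r 0.999). The closest to DGA1 was MAC1 (r 0.997), to TGL4 GTS1 (0.997), to SPO7 EHD3 (0.996) and to LRO1 GEF1 (0.992). The closest to DGK1 was YMR013C-A (0.990), to TGL3 TVP18 (0.989), to NEM1 CAT2 (0.985), to PAH1 AVO2 (0.980) and to TGL5 YFL064C (0.954). These are maxima over all genes with 8 points each, and all points share the arrays and their scaling. Within the list itself the most alike pair was the acyltransferase gene DGA1 and the lipase gene TGL4 (r 0.950), followed by LRO1 and TGL3 (0.946) and by SPO7 and TGL3 (0.941), all without a test.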
